A study of Mus musculus with 6 samples.

Results

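Resident large peritoneal macrophages are described here through 10 of their marker genes in peritoneal macrophages (PEMs) with and without Tim-4. The genes were *Gata6*, *Cd5l*, *Prg4*, *Icam2*, *Vsig4*, *Alox15*, *Serpinb2*, *Garnl3*, *F5* and *Adgre1*. They were chosen by name from the known markers of this cell type, with earlier results of the same comparison in view. Their differences, and the counts of them past a threshold, are thus a description and not evidence. All 10 were among the 15415 genes of the deposited table. Of the 6 RNA libraries of PEMs, 3 had the genotype LysM-Cre; Tim-4 fl/fl (knockout libraries 1, 2 and 3) and 3 the genotype Tim-4 fl/fl (control libraries 1, 2 and 3). Both groups carry the floxed *Tim-4* allele, which was made in C57BL/6J mice. Only the knockout mice carry LysM-Cre, a Cre recombinase made from the lysozyme gene *Lyz2* and thus active in myeloid cells at large, not in macrophages alone. LPS is the treatment that the labels name for every library, and the study's methods do not tie their LPS step to these libraries. By the methods of the study, PEMs were collected after an injection of starch into the peritoneal cavity, which draws in further leukocytes beside the resident cells. By the same methods, the experiments of the study used male mice 6 to 8 weeks of age. Whether the libraries of a group came from separate mice is not given in the sources used here, so p-values measure only the spread between these samples. The libraries were grouped by their titles, because the genotype given in the labels is swapped between the groups relative to those titles.

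The peritoneal cavity of an untreated mouse holds large peritoneal macrophages, which are long-lived and express high F4/80 and Tim-4, and small peritoneal macrophages, which come from monocytes and express MHC class II. The large cells depend on the transcription factor GATA6, which is sustained by retinoic acid from the omentum and drives much of their tissue-specific programme. After an inflammatory stimulus, large macrophages are well known to become hard to recover from the cavity, while monocyte-derived cells accumulate. Tim-4, a receptor for phosphatidylserine on dying cells, is itself used as a marker of the resident large cells.

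To show what lies just before the starts of members that were lower together, the 250 bases upstream of 3 members are printed, from RefSeq on GRCm38.p6. They were searched on both strands for GATAA, a form of the core that GATA factors bind, and for GAGGAA, a form of the core that PU.1, the lineage factor of macrophages, binds. Capitals mark a match on either strand, and each sequence runs 5′ to 3′ along its gene. *Cd5l* lies at chr3:87357631-87357880 on the plus strand, *Vsig4* at chrX:96293439-96293688 on the minus strand and *F5* at chr1:164151585-164151834 on the plus strand.
Cd5l: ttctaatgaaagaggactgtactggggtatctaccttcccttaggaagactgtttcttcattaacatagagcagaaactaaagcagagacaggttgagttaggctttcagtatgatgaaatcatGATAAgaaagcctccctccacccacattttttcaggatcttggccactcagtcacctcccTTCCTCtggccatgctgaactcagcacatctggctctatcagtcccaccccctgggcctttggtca
Vsig4: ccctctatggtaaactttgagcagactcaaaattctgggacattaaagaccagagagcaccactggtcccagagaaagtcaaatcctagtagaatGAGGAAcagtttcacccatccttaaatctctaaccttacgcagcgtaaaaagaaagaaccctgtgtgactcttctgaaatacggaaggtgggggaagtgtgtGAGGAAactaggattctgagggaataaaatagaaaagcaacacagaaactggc
F5: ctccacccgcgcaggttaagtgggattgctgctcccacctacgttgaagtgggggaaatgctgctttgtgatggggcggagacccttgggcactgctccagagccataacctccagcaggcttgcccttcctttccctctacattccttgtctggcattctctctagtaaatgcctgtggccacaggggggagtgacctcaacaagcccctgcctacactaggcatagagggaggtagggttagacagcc
The window of *Cd5l* held GATAA from 126 to 122 bases before the start and, on the opposite strand, GAGGAA from 66 to 61 bases before it. That of *Vsig4* held GAGGAA at 2 places, from 155 to 150 and from 53 to 48 bases before the start. The window of *F5* held neither run of letters. In all, windows of 5 of the 10 genes were used, 7 between them, since *Serpinb2* and *Garnl3* have more than 1 annotated start. Any member entry on 1 chromosome was left out, while the windows of all mouse genes include that chromosome. GATAA was in 2 of the 7 windows and GAGGAA in 2, against 22.6% and 23.3% of all 32851 mouse windows of the same length. The other GATAA match was in the second *Serpinb2* window, from 40 to 36 bases before that start, and this window lies in part downstream of the first *Serpinb2* start. No entry was used for *Gata6*, *Prg4*, *Icam2*, *Alox15* and *Adgre1*. These are matches of letters and not sites of binding.

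The deleted gene was checked first. *Timd4* (Entrez 276891), which encodes Tim-4, had levels of 0.333, 0.394 and 0.246 FPKM (reads per unit of gene length, scaled to the library's total) in knockout libraries 1, 2 and 3, against 19.5, 12.0 and 1.19 FPKM in control libraries 1, 2 and 3. Its level in control library 3 was 0.0752 of the mean of the other controls, so that library stood close to the knockout libraries. The log2 fold change of *Timd4* was -2.66 with a standard error of 0.74, and its adjusted p of 0.0715 from limma missed the threshold of 0.05. It passed at an adjusted p of 0.0436 when the replicate number entered as a block (the blocked fit). The table gives 1 value for the whole gene, and reads from the floxed part cannot be told apart from the rest. *Lyz2* was at 41.4, 4656 and 106.0 FPKM in the knockouts against 7090 to 8482 FPKM in the controls, so knockout library 2 stood apart from knockout libraries 1 and 3. Between 36170767 and 42217558 reads per library were recovered from the deposited values, and the reads per member and library ranged from 4 for *Garnl3* to 112786 for *Serpinb2*.

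All 10 genes had a lower mean in the knockout than in the control libraries. The ratio of the control mean to the knockout mean ran from 1.16 for *Adgre1* to 23.1 for *Prg4*. No knockout library reached the lowest control in 8 of the 10 genes, which also held for 21.3% of all listed genes, and the exceptions were *Gata6* and *Adgre1*. Of the 9030 genes with a mean of at least 1 FPKM in one group, which were tested with limma on log2(FPKM + 1), 7.31% passed an adjusted p of 0.05. These were divided into 4.74% lower and 2.57% higher in the knockout libraries, a balance that depends on the scaling, since 326 were lower and 343 higher after rescaling by the median of ratios. Among the 10 genes, 8 reached that level and 6 of them were past the threshold, all lower (*Cd5l*, *Prg4*, *Icam2*, *Vsig4*, *Alox15* and *Serpinb2*). Since the genes were chosen with this contrast known, nothing is read from that count. *Serpinb2* was not past the threshold in the blocked fit. Without control library 2 the count was 0, with 6 genes still at an unadjusted p under 0.05. It was 2 without knockout library 1 and 3 without knockout library 2. The median log2 fold change of the 8 genes was -1.97, beside -0.11 over all tested genes. By control mean the order was *Serpinb2*, *Adgre1*, *Cd5l*, *Prg4*, *Vsig4*, *F5*, *Icam2*, *Alox15*, *Gata6* and *Garnl3*. The ranges of the control libraries overlapped between *Cd5l* and *Prg4*, and between each of the neighbours from *Vsig4* to *Alox15*, and did not overlap between the other neighbours. In the knockout libraries *Adgre1* was first and *Serpinb2* after it by mean, with overlapping ranges. In RNA from a mixed cell sample, fewer cells of a type and less RNA per cell cannot be told apart.

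**Figure D1:**
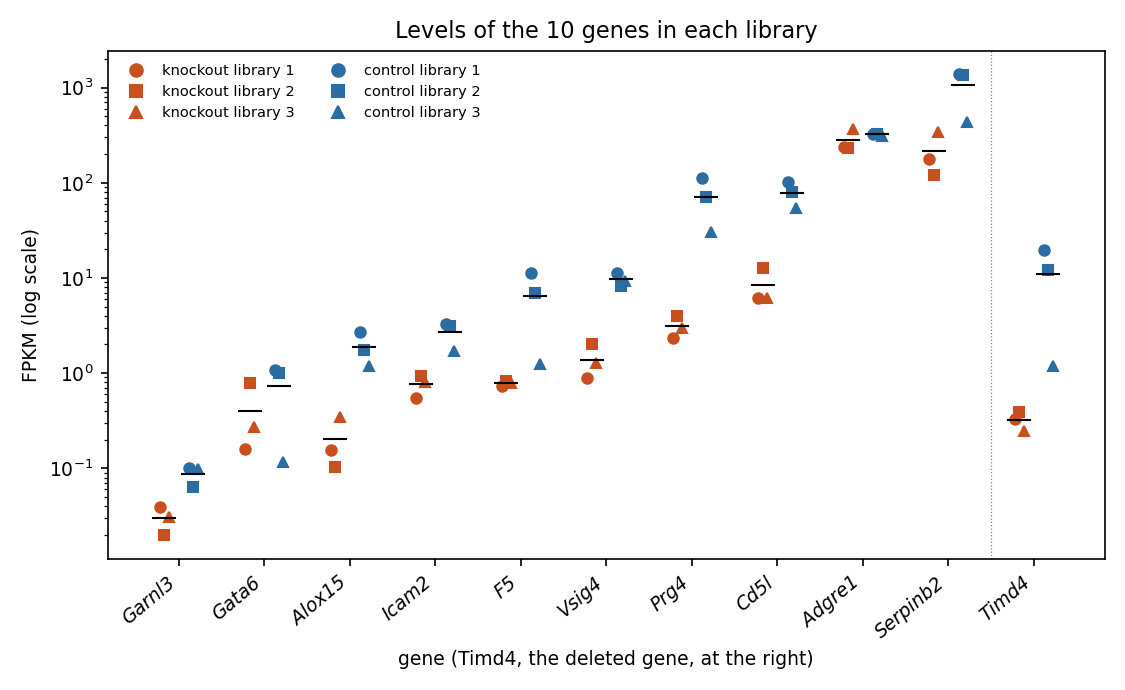
FPKM of each of the 10 genes and of *Timd4* on a log axis, with 1 point for each library (orange, knockout; blue, control; the symbol gives the library number) and a black line at the group mean. Knockout points lie below all control points for 8 of the 10 genes, and control library 3 (blue triangle) is the lowest control for 8 of them.

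*Gata6* (Entrez 14465), the transcription factor of the resident large cell, was scarce in every library. It was at 0.158, 0.780 and 0.273 FPKM in knockout libraries 1, 2 and 3 and at 1.07, 1.01 and 0.117 FPKM in control libraries 1, 2 and 3. Control library 3 was the lowest of all 6, and knockout library 2 lay above it and below the other controls, so the groups overlapped. These levels rested on 22, 109 and 37 reads in the knockout libraries. The control libraries held 140, 130 and 14 reads, the last with an exact Poisson 95% interval of 7.65 to 23.5, which covers counting error only. That interval does not reach the interval of knockout library 2, which was 89.5 to 131.5 reads. With a group mean of 0.404 ± 0.331 FPKM in the knockout and 0.732 ± 0.534 FPKM in the control libraries (SD, n = 3), *Gata6* stayed under the minimum of 1 FPKM for the test. The log2 fold change was -0.27 with a standard error of 0.28. With 1 library left out it ran from -0.56 (without control library 3) to -0.12 (without control library 1). GATA6 is also made by mesothelial cells, which line the cavity. Of the markers listed for mesothelial cells and fibroblasts, 5 are mesothelial, and each was highest among the knockouts in library 2, where *Wt1* was at 0.766, *Upk3b* at 0.826, *Upk1b* at 0.781, *Msln* at 0.979 and *Krt19* at 0.468 FPKM. Each was also highest among the controls in library 3, at 0.152, 0.570, 1.04, 1.09 and 0.683 FPKM in the same order, and there *Gata6* was lowest. The part of mesothelial RNA in the *Gata6* values was not tested.

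Among the secreted proteins, *Cd5l* (Entrez 11801) encodes AIM, a scavenger-receptor-like protein of tissue macrophages that inhibits apoptosis. *Cd5l* was at 6.17, 12.8 and 6.21 FPKM in knockout libraries 1, 2 and 3 and at 100.8, 79.7 and 54.5 FPKM in control libraries 1, 2 and 3. The lowest control was well above the highest knockout library, and the control mean of 78.3 ± 23.2 FPKM (SD, n = 3) was 9.32 times the knockout mean of 8.41 ± 3.84 FPKM. On the log2 scale the difference was -3.10 with a standard error of 0.32. Its promoter window, printed above, was the one of the 3 with a GATAA run.

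*Prg4* (Entrez 96875) encodes lubricin, a mucin-like glycoprotein that coats joint and serosal surfaces. *Prg4* was at 2.33, 3.99 and 2.95 FPKM in the knockouts against 113.6, 70.5 and 30.1 FPKM in control libraries 1, 2 and 3. The control libraries spread widely, with the third at 0.327 of the mean of the other two, yet each was above every knockout library. At 71.4 ± 41.8 against 3.09 ± 0.836 FPKM (SD, n = 3), *Prg4* had the largest difference of the 10 genes on the log2 scale, at -3.97 with a standard error of 0.44.

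*Serpinb2* (Entrez 18788) encodes an inhibitor of plasminogen activators that macrophages make in large amounts after LPS, and it was the most abundant of the 10 genes in the control libraries. *Serpinb2* was at 178.7, 122.1 and 339.3 FPKM in the knockouts against 1395.8, 1348.7 and 434.5 FPKM in control libraries 1, 2 and 3. Control library 3 lay nearer to knockout library 3 than to the other controls. The control mean was 4.97 times the knockout mean, and the log2 fold change was -2.26 with a standard error of 0.53. With 1 library left out it ran from -2.81 (without control library 3) to -1.92 (without knockout library 2).

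*F5* (Entrez 14067) encodes coagulation factor V, the cofactor of factor Xa in forming thrombin. *F5* was at 0.730, 0.835 and 0.786 FPKM in knockout libraries 1, 2 and 3, which hardly differed among themselves, and at 11.3, 7.0 and 1.26 FPKM in control libraries 1, 2 and 3. The groups did not overlap, but control library 3 was at 0.138 of the mean of the other controls. The log2 fold change of -1.76 had a standard error of 0.55. With 1 library left out it ran from -2.47 (without control library 3) to -1.25 (without control library 1). It was -2.44 with a pseudocount of 0.1 and -2.57 with voom. *F5* was past the threshold only in the fit without control library 3, of the fits made.

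Among the surface receptors, *Vsig4* (Entrez 278180) encodes CRIg, a complement receptor that binds C3 fragments on microbes. *Vsig4* was at 0.879, 2.0 and 1.29 FPKM in the knockouts against 11.4, 8.33 and 9.23 FPKM in the control libraries. Here control library 3 did not stand apart, at 0.936 of the mean of the other controls. The control mean of 9.65 ± 1.58 FPKM (SD, n = 3) was 6.94 times the knockout mean of 1.39 ± 0.566 FPKM, with a log2 fold change of -2.17 and a standard error of 0.20.

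*Icam2* (Entrez 15896) encodes an adhesion molecule bound by the integrin LFA-1 and is used with F4/80 to gate large peritoneal macrophages. *Icam2* was at 0.553, 0.937 and 0.798 FPKM in the knockouts against 3.31, 3.13 and 1.70 FPKM in control libraries 1, 2 and 3. The groups did not overlap and control library 3 was the lowest control. The gene's log2 fold change was -1.05 with a standard error of 0.20, which the pseudocount of 1 holds down, since with a pseudocount of 0.1 it was -1.68.

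*Adgre1* (Entrez 13733) encodes F4/80, the macrophage surface marker that is highest on the large cells but present on both populations. *Adgre1* was at 237.3, 234.7 and 363.8 FPKM in the knockouts against 329.1, 326.6 and 309.6 FPKM in the control libraries. Knockout library 3 was the highest of all 6 libraries, so the groups overlapped, and the control libraries lay close together at 321.8 ± 10.6 FPKM (SD, n = 3) beside 278.6 ± 73.8 FPKM in the knockout. The log2 fold change was -0.24 with a standard error of 0.19, and -0.09 after rescaling by the median of ratios, which moved the median of all tested genes from -0.11 to 0.01. Of the 10 genes it had the smallest ratio between the group means.

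*Alox15* (Entrez 11687) encodes a lipoxygenase that oxidises polyunsaturated fatty acids and is made by resident peritoneal macrophages and by eosinophils. *Alox15* was at 0.156, 0.102 and 0.345 FPKM in the knockouts against 2.69, 1.76 and 1.19 FPKM in control libraries 1, 2 and 3. Every control library was above every knockout library, and the control mean was 9.37 times the knockout mean. The log2 fold change was -1.24 with a standard error of 0.20 at a pseudocount of 1, and -2.73 at a pseudocount of 0.1. Of the 6 eosinophil markers listed, 4 were in the table and none reached 1 FPKM in a group mean. Their summed level was 0.268 to 0.610 FPKM in the knockout and 1.24 to 1.74 FPKM in the control libraries. *Ccr3*, the eotaxin receptor, was at 0.307, 0.0543 and 0.245 against 0.530, 0.883 and 0.855 FPKM, *Il5ra* at 0.0126 to 0.0862 against 0.3 to 0.524 FPKM and *Siglecf* at 0.0436 to 0.184 against 0.112 to 0.203 FPKM. The part of eosinophils in the *Alox15* values was not tested.

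*Garnl3* (Entrez 99326) was nearly absent. It was at 0.0396, 0.0197 and 0.0305 FPKM in the knockouts against 0.1, 0.0641 and 0.0977 FPKM in the control libraries. That came from 8, 4 and 6 reads against 19, 12 and 17 reads, and the exact Poisson 95% intervals of knockout library 1 (3.45 to 15.8 reads) and control library 2 (6.2 to 21.0 reads) overlapped. The ratio of the control mean to the knockout mean was 2.92, and the log2 fold change of -0.08 on the FPKM + 1 scale says little at this level.

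**Figure D2:**
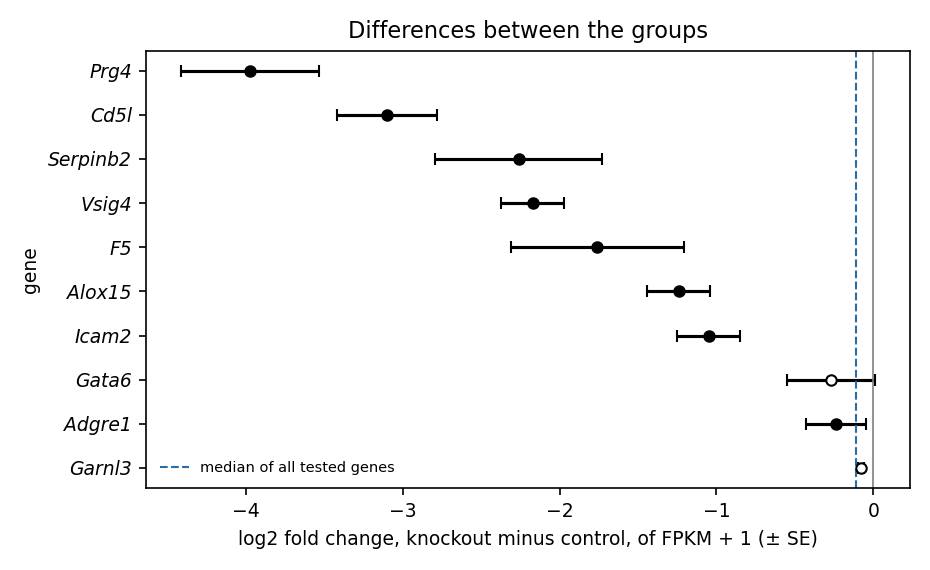
Log2 fold change (knockout minus control) of FPKM + 1 for each of the 10 genes, with bars of 1 standard error, filled where the gene reached 1 FPKM in a group mean and open where it did not. The values run from -3.97 for *Prg4* to -0.08 for *Garnl3*, and the dashed line is the median of all tested genes at -0.11.

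Single libraries of a group differed, and not in the same way for each member. Control library 3 was the lowest control for 8 of the 10 genes, and for 26.6% of all tested genes. Its level was at most 0.6 of the mean of control libraries 1 and 2 in 5 tested members and in *Gata6*, and in 9.06% of the tested genes, where the median ratio was 1.09. It was at most 0.35 of that mean in *Gata6*, *F5*, *Serpinb2* and *Prg4*, and in 2.86% of the tested genes. *Cd5l*, at 0.604, *Vsig4*, *Adgre1* and *Garnl3*, at 1.19, were above 0.6. In the knockout group, library 2 had the highest level of 6 members and library 3 of 3 members. Library 2 was at least 1.5 times the mean of the other knockout libraries for *Gata6* (3.62), *Cd5l* (2.07), *Vsig4* (1.84) and *Prg4* (1.51), and so were 2.31% of the tested genes. In the same library *Serpinb2*, *Alox15* and *Garnl3* were at 0.471, 0.408 and 0.562 of the mean of the others, so the members did not move as 1 block within the knockout group.

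**Figure D3:**
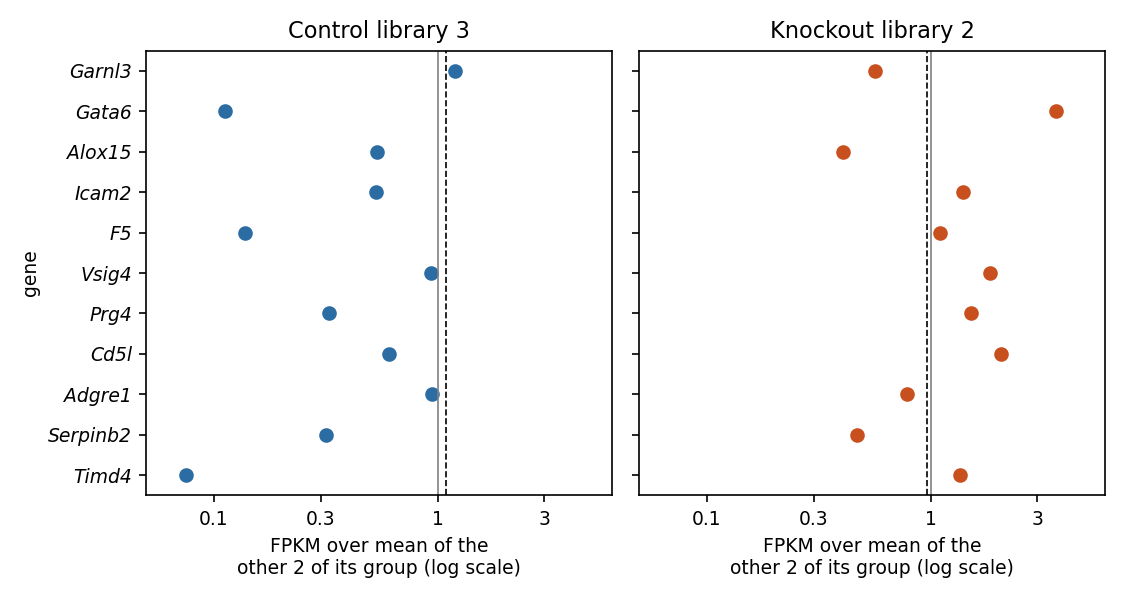
Level of each of the 10 genes and *Timd4* in control library 3 (left) and knockout library 2 (right), as a ratio to the mean of the other libraries of the same group on a log axis. The grey line is at 1 and the dashed line at the median of all tested genes (1.09 left, 0.962 right), and *Timd4*, *Gata6* and *F5* lie furthest to the left for control library 3.

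Over the 6 libraries, the mean z-score of the 8 tested members was -1.01, -0.83 and -0.51 in the knockout libraries and 1.17, 0.91 and 0.28 in control libraries 1, 2 and 3. Pearson's r of a member with the mean of the others, on log2(FPKM + 1), lay between 0.894 and 0.987 for 7 members and was 0.544 for *Adgre1*. With *Timd4*, r was highest for *F5* (0.998) and lowest for *Adgre1* (0.442). These correlations over 6 libraries share the difference between the groups and are given as a description. Outside the 10 genes, the 5 tested genes most alike to the mean z-score were *Gm41523*, *Ctla2b*, *Efnb2*, *Fabp7* and *Sec24d*, with r from 0.9959 to 0.9996 over the 6 libraries. *Ctla2b* was at 0.509, 0.588 and 1.51 FPKM in the knockout against 14.1, 12.1 and 4.71 FPKM in the control libraries. *Fabp7*, a fatty acid-binding protein, was at 5.37, 7.65 and 11.2 FPKM and at 84.7, 82.7 and 33.8 FPKM. *Efnb2*, the ligand ephrin-B2, was at 0.244 to 0.633 FPKM against 1.74 to 3.27 FPKM, *Sec24d*, a coat protein of vesicles leaving the endoplasmic reticulum, at 2.30 to 3.22 FPKM against 6.29 to 15.3 FPKM, and *Gm41523* at 0.788 to 1.28 FPKM against 2.18 to 3.73 FPKM. In each of the 5 genes control library 3 was the lowest control and knockout library 3 the highest knockout library, an order that the choice by correlation fixes, since the mean z-score has it too.

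Further genes tied to large peritoneal macrophages were compared as a second list. This list and those that follow were also chosen with earlier results of these data known, so their calls are not independent evidence. Of 16 such genes, 13 were tested, and 3 fell, none rose and 10 did not pass the test, with a median log2 fold change of -1.04 beside -0.11 over all tested genes. *Slpi*, a secreted inhibitor of leukocyte proteases, fell from 2594.8, 2517.1 and 2965.3 FPKM in the control libraries to 671.8, 355.5 and 1045.1 FPKM in the knockout libraries (log2 fold change -2.09, standard error 0.36, adjusted p = 0.0210 from limma). *Ltbp1*, which anchors latent TGF-β in the matrix, was at 0.149 to 0.306 FPKM in the knockout and 1.26 to 5.17 FPKM in the control libraries (-1.72, standard error 0.34, adjusted p = 0.0316). *Thbs1*, the matrix protein thrombospondin 1, was at 101.1 to 189.0 FPKM against 257.0 to 277.2 FPKM (-1.10, standard error 0.25, adjusted p = 0.0426). *Marco*, a scavenger receptor, was at 25.1, 31.1 and 111.8 FPKM against 589.3, 326.6 and 83.0 FPKM in control libraries 1, 2 and 3, and with control library 3 inside the knockout range its adjusted p was 0.102. *Saa3*, an acute-phase protein, overlapped in the same way, at 2258.4 to 3667.6 FPKM against 20322.4, 15141.0 and 3304.0 FPKM (adjusted p = 0.125). *Marco* and *Saa3* were named after their values were seen. The count of this list past the threshold was 0 without knockout library 1 or control library 2 (4 and 5 genes at an unadjusted p under 0.05), 1 without knockout library 2, 1 without a filter on low values (*Naip1*, not *Slpi*, *Ltbp1* or *Thbs1*), and 10 without control library 3, where 9 were lower and *Cd93* was higher. *Cd93* also passed as higher after rescaling and in the blocked fit (adjusted p = 0.0340 in the latter).

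Small and monocyte-derived peritoneal macrophages are the contrasting population, and none of their genes was past the threshold as higher in the knockout libraries. Of 16 genes 14 were tested, and 4 fell, none rose and 10 did not pass the test, with a median log2 fold change of -0.72. *Retnla*, which encodes the secreted protein RELMα of alternatively activated macrophages, was at 8.71, 8.62 and 15.0 FPKM in the knockouts against 3427.5, 1507.2 and 98.5 FPKM in control libraries 1, 2 and 3 (-6.13, standard error 1.16, adjusted p = 0.0283 from limma). *Plac8* (-2.23), the transcription factor *Irf4* (-1.55) and *Ciita*, the master regulator of MHC class II genes (-0.63), were also lower, with adjusted p of 0.0383, 0.0263 and 0.0426. In control libraries 1, 2 and 3, *Plac8* was at 14.7, 9.0 and 2.68 FPKM and *Irf4* at 6.84, 5.11 and 2.96 FPKM. The summed B cell markers given below had the same order, and *Ciita*, at 1.03, 1.28 and 1.63 FPKM, had the opposite one. The part of B cells in these values was not tested. *Ciita* did not pass in the blocked fit (adjusted p = 0.0557), nor *Plac8* after rescaling or with voom. The MHC class II genes themselves overlapped between the groups, *H2-Aa* being at 105.4 to 265.0 FPKM in the knockout and 178.1 to 444.8 FPKM in the control libraries (adjusted p = 0.299). *Ly6c2*, a marker of recent monocyte origin, ranged from 5.61 to 51.1 FPKM and from 5.42 to 32.5 FPKM (adjusted p = 0.892). *H2-Aa* and *Ly6c2* were named after their values were seen. The count was 0 without a filter on low values and in each fit without one of the knockout libraries or without control library 2, with 4 or 5 genes at an unadjusted p under 0.05.

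Of the 12 genes that all macrophages share, all were tested, 2 rose, none fell and 10 did not pass the test, with a median log2 fold change of 0.16. Without control library 3 the count was 5, with *Cd68* and *Lgals3* also higher and *Cd14* lower. *Csf1r* passed as lower without knockout library 3, and *Fcgr1* was the gene that passed in every fit run. *Fcgr1*, the high-affinity IgG receptor, was at 50.2, 57.5 and 36.1 FPKM in the knockout against 5.16, 5.76 and 6.58 FPKM in the control libraries (2.82, standard error 0.19, adjusted p = 0.0015 from limma). *Ctss*, the lysosomal protease cathepsin S, was at 3285.4 to 3610.5 FPKM against 2268.2 to 2370.4 FPKM (0.58, standard error 0.12, adjusted p = 0.0325), and it passed neither in the blocked fit (adjusted p = 0.0508), nor without a filter on low values, nor in the fits that left out a knockout library or control library 1 or 2. *Lgals3* was at 2485.4 to 3285.2 FPKM against 1274.4 to 2612.8 FPKM (adjusted p = 0.124). All 6 libraries were rich in the macrophage markers *Cd68* (815.5 to 1685.3 FPKM) and *Itgam* (244.7 to 399.9 FPKM) and thus in markers of the labelled cell type, while *Gata6* did not exceed 1.07 FPKM in any library.

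The transcription factors of resident macrophages other than GATA6 gave 0 of 9 tested genes past the threshold in limma, with 3 at an unadjusted p under 0.05, and voom on the recovered reads gave 0 as well. Their median log2 fold change was 0.12. *Cebpb* was at 230.1 to 276.6 FPKM in the knockout and 209.0 to 277.3 FPKM in the control libraries (adjusted p = 0.521). *Spi1*, the gene of PU.1, was at 223.1 to 266.8 FPKM against 191.1 to 276.0 FPKM (adjusted p = 0.685), and *Bhlhe40* at 40 to 53.5 FPKM against 25.2 to 70.4 FPKM (adjusted p = 0.851). In the blocked fit, *Klf2* was past the threshold as lower (adjusted p = 0.0366) and *Maf* as higher (adjusted p = 0.0492), and *Maf* also passed without control library 3.

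**Figure D4:**
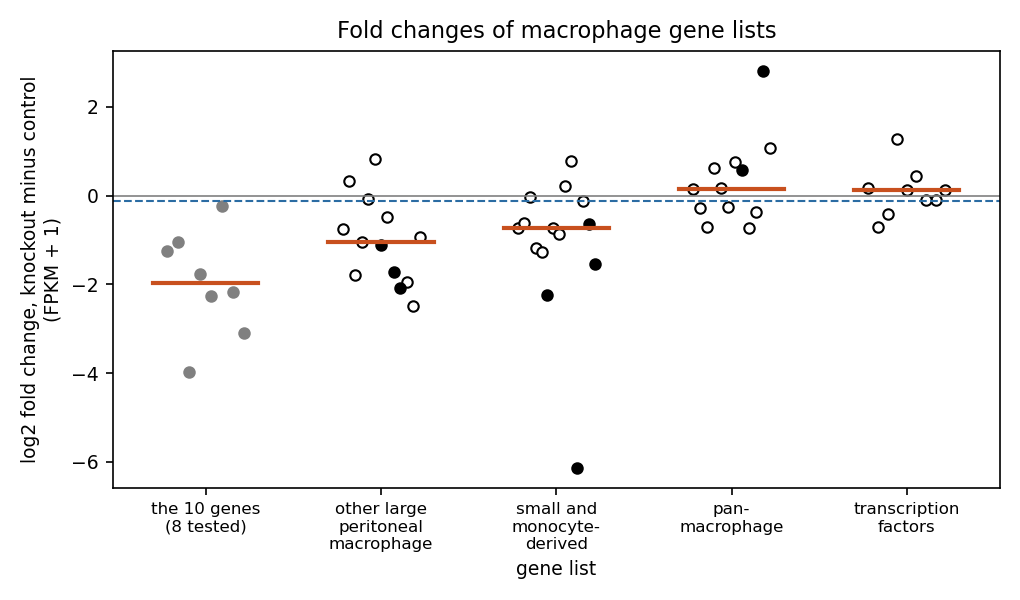
Log2 fold change (knockout minus control) of FPKM + 1 for each tested gene of 5 macrophage gene lists, with the list median in orange. The 8 tested members are grey and shown without calls, other genes are filled where the adjusted p from limma was under 0.05 and open where not, the dashed line is the median of all tested genes (-0.11), and the medians run from -1.97 for the members to 0.16 for the pan-macrophage genes.

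Markers of B cells and mast cells also differed between the groups, while the summed levels of T cell, neutrophil, and mesothelial and fibroblast markers overlapped. Of 10 B cell markers 9 were in the table and 8 were tested, and 7 fell, with a median log2 fold change of -2.39. The summed level of the list was 11.6 to 12.8 FPKM in the knockout libraries and 140.1, 97.4 and 38.9 FPKM in control libraries 1, 2 and 3, so the control libraries stood in the same order as for *Prg4*, *Cd5l* and *F5*. *Cd22*, the tested marker that did not pass (adjusted p = 0.979 from limma), was at 6.42, 8.25 and 6.97 FPKM in the knockouts against 9.58, 6.92 and 5.40 FPKM in the controls, and it made up the larger part of each knockout sum. *Cd79a*, a signalling chain of the B cell receptor, was at 1.54 to 2.83 FPKM against 15.3 to 57.6 FPKM (-3.29, standard error 0.44, adjusted p = 0.0117 from limma). *Cd79b* and *Ms4a1*, the gene of CD20, had log2 fold changes of -3.03 and -2.70, and *Fcmr* of -2.20. *Ms4a1* did not pass after rescaling, with voom or without a filter on low values, and the list gave 5, 6 and 4 genes in these fits. The count of the list was 0 without knockout library 1 or control library 2 and 1 without knockout library 2, with 7 genes at an unadjusted p under 0.05 in each. The part of B cells in the differences of the members, or of the small and monocyte-derived list, was not tested.

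Of 6 mast cell markers 5 were tested and all 5 fell, with a median log2 fold change of -2.70. Their summed level was 1.89 to 2.27 FPKM in the knockout and 38.2, 39.0 and 49.3 FPKM in control libraries 1, 2 and 3, and here control library 3 was the highest control and not the lowest. The proteases *Tpsb2* (-3.26), *Cma1* (-2.93), *Cpa3* (-2.70) and *Mcpt4* (-2.46) had adjusted p between 0.000591 and 0.000975 from limma, and the receptor *Kit* (-0.90) one of 0.0497. *Kit* did not pass in the blocked fit (adjusted p = 0.0538), without a filter on low values, or when any 1 of the knockout libraries or control library 2 was left out. Of 9 neutrophil markers 7 were listed and 5 tested, and *S100a8* (-1.58, adjusted p = 0.0113) and *Camp* (-0.64, adjusted p = 0.0454) fell. *Camp* passed in no other fit run except those without knockout library 3 or control library 3, and its adjusted p in the blocked fit was 0.0529, where *Retnlg* passed at 0.0437. *Mmp8*, the most abundant neutrophil marker that did not pass, was at 29.2 to 127.5 FPKM against 19.5 to 293.9 FPKM (adjusted p = 0.780). No neutrophil marker passed without knockout library 1 or control library 2, with 3 at an unadjusted p under 0.05 in each. The summed neutrophil level was 71.2 to 201.2 FPKM against 194.8 to 458.6 FPKM, and *S100a8* and *Mmp8* made up most of it in every library. *S100a9*, named after its values were seen, was at 0.953, 0.949 and 1.21 FPKM in the knockouts. In control libraries 1, 2 and 3 it was at 0.0, 2.3 and 5.12 FPKM (adjusted p = 0.667 from limma). *Ngp* and *Cxcr2* stayed at or below 0.143 FPKM in every library. The parts of mast cells and neutrophils in the members' differences were not tested.

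Of 7 T cell markers 6 were listed and 1, *Lck*, was tested, which did not pass (0.693 to 1.34 FPKM against 0.657 to 1.70 FPKM, adjusted p = 0.825 from limma). The T cell receptor chains *Cd3d*, *Cd3e* and *Cd3g* stayed at or below 0.116 FPKM in the knockout and 0.468 FPKM in the control libraries, and *Cd4* at 0.0845 to 0.151 against 0.104 to 0.365 FPKM. The summed T cell level was 0.849 to 1.53 FPKM against 0.996 to 3.25 FPKM. Of 9 mesothelial and fibroblast markers 3 were tested, all of them genes of fibroblasts and matrix, and none passed in limma, with 1 at an unadjusted p under 0.05 and 0 past the threshold with voom, and the median log2 fold change was 0.98. *Dcn* was at 7.67, 14.4 and 6.03 FPKM in the knockout against 1.93, 4.32 and 7.0 FPKM in the control libraries (adjusted p = 0.182). *Col3a1* was at 0.804 to 4.35 FPKM against 0.0228 to 1.11 FPKM (adjusted p = 0.184), and *Col1a1* at 0.923 to 4.31 FPKM against 0.0513 to 1.01 FPKM (adjusted p = 0.109, and 0.0442 in the blocked fit). The summed level of this list was 10.8, 27.0 and 11.4 FPKM in the knockout libraries and 2.10, 6.26 and 12.7 FPKM in the control libraries. Control library 3 was thus the highest control, and knockout library 2 the highest of all.

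**Figure D5:**
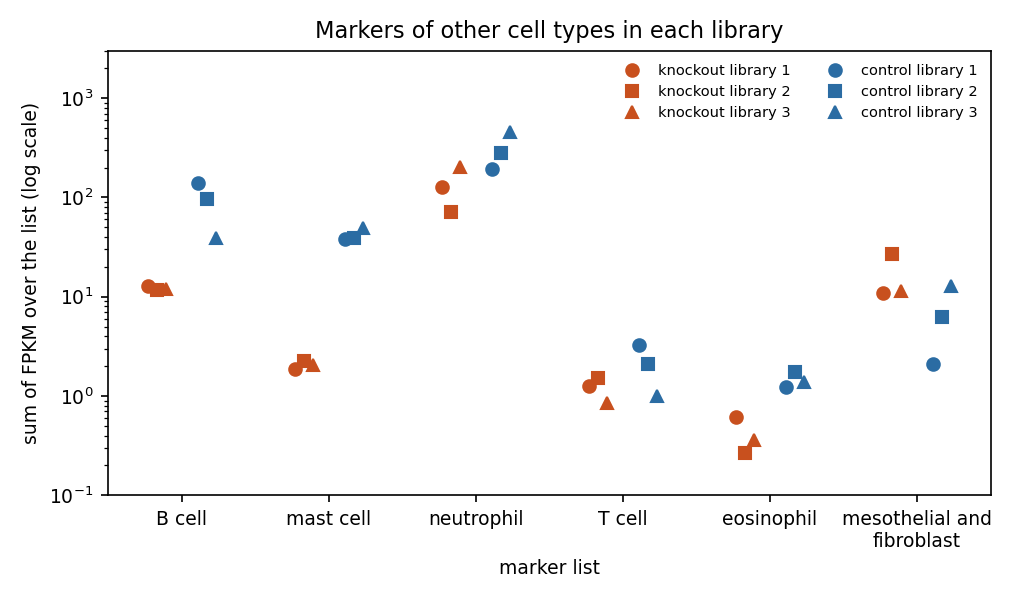
Sum of FPKM over each list of markers of other cell types on a log axis, with 1 point for each library (orange, knockout; blue, control; the symbol gives the library number). B cell and mast cell sums lie at 11.6 to 12.8 and at 1.89 to 2.27 FPKM in the knockout libraries, below every control library, while the mesothelial and fibroblast sum is highest in knockout library 2 at 27.0 FPKM.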

How the data were processed

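RNA of PEMs was sequenced in 6 libraries. The authors deposited 1 table with FPKM per gene and library, which they made from reads counted per gene, and with the mean signal of each group in counts divided by the size factors of DESeq2. The submitters' processing notes name mm9 as the genome build; the aligner and counter are not given in the sources used here, and no coordinates of that build are printed. The deposited fold change, p-value and q-value columns hold the authors' own comparison and were not used. The steps between FPKM values, with the group means, yielded whole reads, for 100% of the values of each library. The tolerance was 0.02 reads, widened in proportion to the value for high counts, so the check says little for the highest values. No per-sample column was left unused.

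The members and all 10 gene lists were chosen with earlier results of these data known. Expression as log2(FPKM + 1) was compared with limma 3.58.1 in R 4.3.3 (lmFit, then eBayes with the trend option) over genes with a mean of at least 1 FPKM in one group, with Benjamini-Hochberg adjustment over all of them and a threshold of 0.05. All adjusted p-values are from this fit unless another is named, and fold changes on this scale understate the change of low genes. An exact permutation test of 3 against 3 libraries cannot give a two-sided p below 0.1. Named were all members, *Timd4* and *Lyz2*, of each list the 5 genes with the largest change past the threshold or, with fewer than 3, also the most abundant until 3 were named, and the 5 genes most correlated with the members. One gene that this rule names is not reported here. The 250 upstream bases of RefSeq promoters were searched for motifs.

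To check for pairing, each library's deviations from its group mean were correlated. Libraries of the same replicate number gave r of 0.109, 0.109 and 0.304, and other pairs between -0.332 and 0.291, a range that holds 0.109. This check thus does not settle whether libraries of the same number are paired. A fit with the number as a block was run as an alternative only. Other alternatives were no filter, a pseudocount of 0.1, rescaling by the median of ratios, voom on the recovered reads and leaving out each library. The main fit was tested on simulated data first.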

Additional observations from a re-analysis of the deposited data

How the results depend on the processing

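The log2 fold changes of the 10 genes kept their sign in every alternative run. Of 104 values, 97 moved by less than the gene's own spread between replicates and 7 by more. These were *Icam2* (-1.68 with a pseudocount of 0.1 and -1.81 with voom), *Vsig4* (-2.77 and -2.86), *Alox15* (-2.73 and -3.34) and *Garnl3* (-0.52 with a pseudocount of 0.1). The pseudocount of 1 weighs more on low values by its construction. *F5*, also low in the knockout libraries, stayed within its wider spread at -2.44 and -2.57. Of the 6 genes past the threshold, 5 remained with the replicate number as a block and 5 after rescaling (*Serpinb2* lost in both), and 4 without a filter (*Icam2* and *Serpinb2* lost). Leaving out 1 library gave 0 (without control library 2) to 7 (without control library 3, with *F5* added).

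Over all tested genes 660 passed, 855 with the block, and 346 when a log2 fold change of 1 or more was also required. Leaving out 1 library gave 8 (without control library 2) to 1278 (without control library 3), and 30 and 63 without knockout libraries 1 and 2. Rescaling gave 669, of which 51.3% were higher against 35.2% before. The list of other large peritoneal macrophage genes gave 3, 1 without a filter (*Naip1*) and 0 to 10 with 1 library left out. The small and monocyte-derived list gave 4, 0 without a filter (5 at an unadjusted p under 0.05, and 3 past the threshold with voom) and 0 to 6 with 1 library left out. With the block, 4 and 3 genes of these lists passed, and it changed no call of a list gene, *Timd4* or *Lyz2* other than those given beside the results. The cause of these changes was not tested. Among the 10 genes depth limits *Garnl3* most (4 to 19 reads), then *Gata6* (14 to 140 reads), and *Icam2* in the knockout libraries (37 to 63 reads).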
